A study of Mus musculus with 2 samples.

Results

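The antioxidant, glutathione and selenoprotein genes described here are 49 genes of 1 functional set. They were taken by name from the transcript tables of mouse gastrocnemius, and the reads of every transcript class were summed per gene and library. Of the 49 genes, 48 had reads, out of 15622 annotated genes with reads in at least 1 library. The remaining gene, Hmox1, had no row in the tables used here and is not analysed here. The study sequenced long reads from gastrocnemius, a fast-twitch muscle of the calf, of male mice aged 25 days. The mice were B6CASTF1/J, the F1 cross of C57BL/6J and CAST/EiJ, so all samples share this genotype, with no treatment named. There was 1 group with 2 biological replicates, and each library was made from 2 µg of RNA. The labels number the samples as different mice but point to 1 donor record, so the spread between the libraries was taken as a spread between animals with that doubt. Every test below compares these 2 libraries, not conditions.

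Muscle makes superoxide and hydrogen peroxide as it respires and contracts. Superoxide dismutases turn superoxide into hydrogen peroxide, which catalase, glutathione peroxidases and peroxiredoxins remove. The peroxidases draw electrons from glutathione or from thioredoxin, and both are kept reduced by NADPH-dependent reductases. Several of these enzymes are selenoproteins, which carry selenocysteine at a UGA codon that would otherwise end translation. The transcription factor NRF2 (Nfe2l2), held in check by KEAP1, switches on many genes of this defence.

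The selenocysteine codon was located in the annotated coding sequence of the transcript with most reads for 10 of the 11 selenoprotein members, and in a full-length annotated transcript for Txnrd2. The stretches below, for 10 of these genes, are coding sequence from the GENCODE M21 transcripts (mm10), shown because a read must reach this codon to carry the information for the active protein. They run 5′ to 3′ in transcript sense, with the selenocysteine codon in capitals.
Selenow, chr7:15920464-15920466, minus strand: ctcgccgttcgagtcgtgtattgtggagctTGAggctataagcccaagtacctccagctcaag
Gpx4, chr10:80054737-80054739, plus strand: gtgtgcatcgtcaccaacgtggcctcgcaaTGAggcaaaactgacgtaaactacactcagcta
Gpx1, chr9:108339451-108339453, plus strand: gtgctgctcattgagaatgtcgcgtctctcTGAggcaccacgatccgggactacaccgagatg
Gpx3, chr11:54907256-54907258, plus strand: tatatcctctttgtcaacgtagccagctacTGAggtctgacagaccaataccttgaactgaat
Txnrd1, chr10:82896037-82896039, plus strand: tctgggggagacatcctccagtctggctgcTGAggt
Txnrd2, chr16:18477772-18477774, plus strand: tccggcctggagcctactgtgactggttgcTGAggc
Msrb1, chr17:24740158-24740160, plus strand: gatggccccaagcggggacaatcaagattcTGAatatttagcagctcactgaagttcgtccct
Selenok, chr14:29973440-29973442, plus strand: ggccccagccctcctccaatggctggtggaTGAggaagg
Selenop, chr15:3274848-3274850, plus strand, the first of its codons: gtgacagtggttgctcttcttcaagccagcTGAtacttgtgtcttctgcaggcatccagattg
Selenos, chr7:66088844-66088846, plus strand: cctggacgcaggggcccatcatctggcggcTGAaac

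The first selenocysteine codon was followed by a glycine codon (GGN) in 8 of the 11 genes. Its place in the transcript differed. In Txnrd1, Txnrd2 and Selenos it lay in the last exon, 1 codon before the end of the coding sequence. In the other 8 genes it lay upstream of the last exon junction, among them by 5 bases in Selenok, 66 in Msrb1, 105 in Gpx1, 240 in Gpx3, 243 in Selenow, 342 in Gpx4 and 357 in Selenop. Selenop, the plasma selenium carrier, held 9 more such codons in its last exon. As background, a stop codon well upstream of the last junction can mark an mRNA for decay.

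Reads in annotated genes numbered 1215785 in replicate 1 and 1549606 in replicate 2. CPM below means a gene's reads per 1000000 such reads. Each long read stands for 1 transcript, so CPM was not divided by transcript length, and levels of different genes are compared on that scale. The difference between the libraries went with transcript length, as given below. Comparisons of genes of unlike length carry that limit, and its size was not tested. With 0 reads, levels up to 2.47 and 1.94 CPM were still possible in the respective libraries (3 counts). Intervals and tests on reads include counting error and nothing else. The summed level of 8 muscle fibre markers was 363918 CPM in replicate 1 and 251488 CPM in replicate 2, and all 8 were detected. Atp2a1, the calcium pump of fast fibres, made most of that difference with 151516 and 23536 CPM, and the other 7 summed to 212403 and 227951 CPM. That sum hides opposite differences. Tnnc2 (24025 and 49836 CPM) and Mylpf (19005 and 31911 CPM) were higher in replicate 2, and Myh4 (23867 and 9831 CPM) and Myh1 (5091 and 779 CPM) lower. By the test described below, 2 of the 8 markers were higher in replicate 2, 5 lower and 1 not past the threshold. None of 5 liver markers (Alb, Apoa1, Fgb, Serpina1a and Ttr) had a row. The libraries stood apart in other ways: 8 fibroblast markers summed to 6137 and 1376 CPM and 6 Schwann cell markers to 150 and 510 CPM. All 4 erythroid markers with enough reads for a test were higher in replicate 2, and the 5 of 6 that were detected summed to a mean of 516 ± 173 CPM (SD, n = 2). The part of these differences in the results below was not tested. In bulk tissue, fewer cells of a type and less RNA per cell cannot be told apart.

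The 48 genes held 7070 reads in replicate 1 and 14633 in replicate 2. Their summed level was 5815 and 9443 CPM, a mean of 7629 ± 2565 CPM (SD, n = 2), or 0.582% and 0.944% of reads in annotated genes. A few genes carried most of it: the 5 most abundant members held 50.8% of the members' reads in replicate 1 and 59.7% in replicate 2. Of the 48, 15 were among the 1000 most abundant genes by mean CPM, 38 had a mean of 20 CPM or more, and 10 lay below. The order of levels was close in both libraries, with Pearson's r of 0.93 on log2 CPM and Spearman's rho of 0.91 across the 48 genes, which share their 2 libraries and are not independent.

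**Figure D1:**
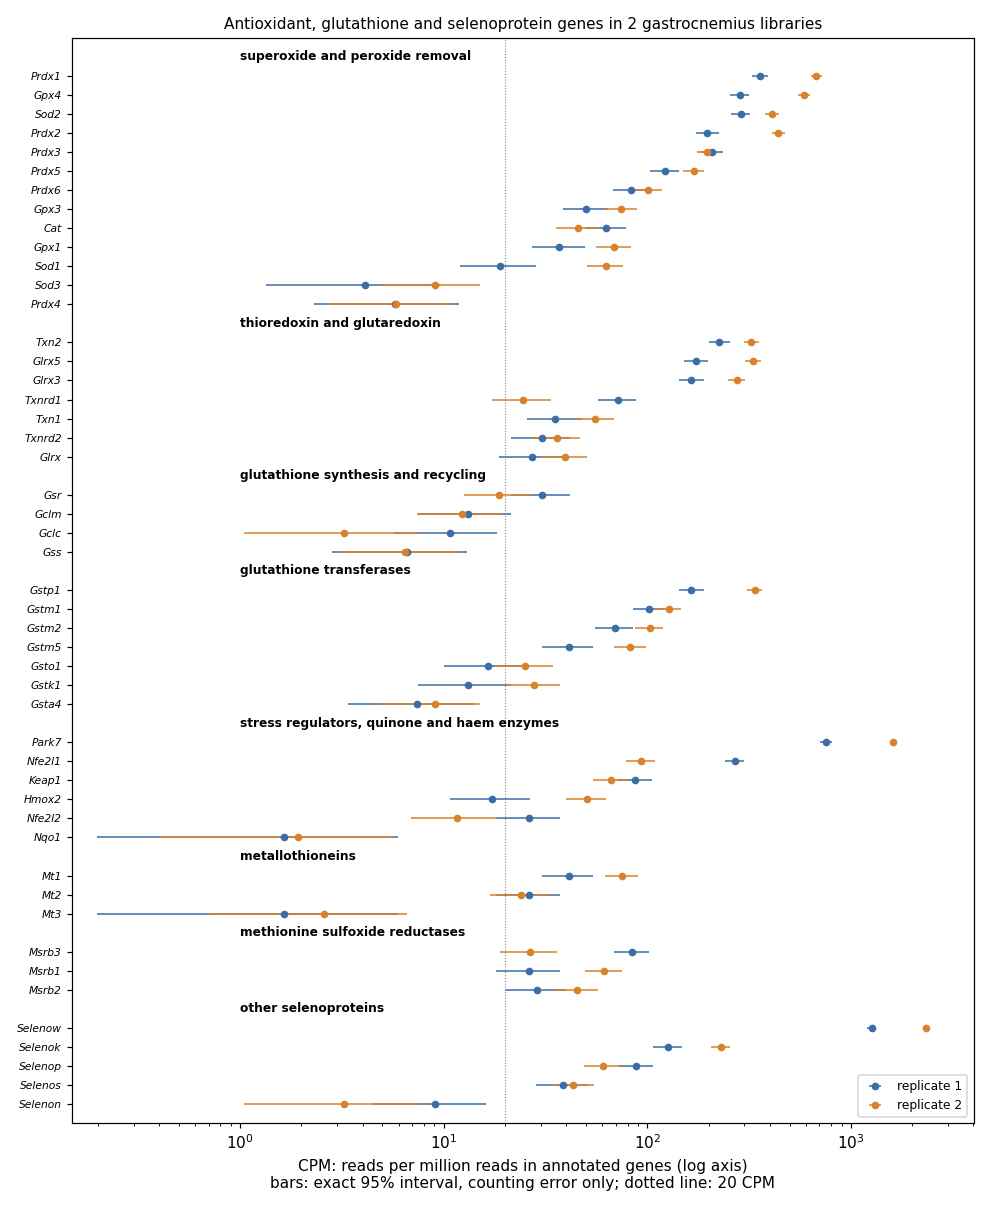
Level of each of the 48 members in CPM on a log axis, by role, in replicate 1 (blue) and replicate 2 (orange), with bars for the exact 95% interval of counting. Selenow and Park7 stand highest in both libraries, and the glutathione synthesis genes lie near or below 30 CPM.

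Superoxide and peroxide removal summed to 1720 and 2848 CPM in replicates 1 and 2 over 13 genes. Mitochondrial superoxide dismutase (Sod2, chr17:13006846-13040063) had 350 and 634 reads, 288 and 409 CPM. Cytosolic Sod1 (chr16:90220754-90226329) had 23 and 97 reads, 18.9 and 62.6 CPM, and secreted Sod3 4.11 and 9.03 CPM. Sod2 reads thus outnumbered Sod1 reads 15.2 to 1 in replicate 1 and 6.54 to 1 in replicate 2. The gap between the libraries in this ratio lay in reads outside the annotated transcripts: on annotated transcripts alone the ratio was 15.6 and 14.6. Of the Sod1 reads of replicate 2, 45 (46.4%) were on 1 incomplete model in its last exon. A processed pseudogene of Sod1, Gm8566, 97.8% identical over 465 bases, had 7 and 49 reads, so Sod1 is uncertain by up to that number.

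Hydrogen peroxide can be removed by catalase (Cat), which stood at 62.5 CPM in replicate 1 and 45.8 CPM in replicate 2. Among glutathione peroxidases the order was Gpx4, then Gpx3 and Gpx1. Gpx4, which reduces lipid hydroperoxides in membranes, had 347 and 915 reads, 285 and 590 CPM. Plasma-type Gpx3 had 50.2 and 74.2 CPM and cytosolic Gpx1 37.0 and 68.4 CPM, and the intervals of these 2 genes overlapped within each library. Gpx4 exceeded Gpx1 by 7.71 times in replicate 1 and 8.63 times in replicate 2, a gap far beyond the intervals in both. The near-identical Gpx4-ps2 held 17 and 56 reads, 4.67% and 5.77% of the reads of the 2 genes together.

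Peroxiredoxins, thiol peroxidases that are mostly fed by thioredoxin, were led by Prdx1 (chr4:116685544-116700822), a cytosolic form, with 358 and 675 CPM. Cytosolic Prdx2 had 197 and 440 CPM. The mitochondrial forms were Prdx3, with 208 and 197 CPM, and Prdx5, with 122 and 169 CPM. In replicate 1 the intervals of Prdx2 (173 to 224 CPM) and Prdx3 (183 to 235 CPM) overlapped. In replicate 2 Prdx2 was above Prdx3, at 408 to 474 against 176 to 221 CPM. Prdx6, which uses a single active-site cysteine, had 83.1 and 101 CPM, and Prdx4 of the endoplasmic reticulum 5.76 and 5.81 CPM.

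The thioredoxin and glutaredoxin group summed to 729 and 1086 CPM in replicates 1 and 2, led by Txn2, Glrx5 and Glrx3. Mitochondrial thioredoxin (Txn2) had 226 and 325 CPM, against 35.4 and 55.5 CPM of cytosolic Txn1, a ratio of 6.40 and 5.85. Glrx5, a mitochondrial glutaredoxin of iron-sulfur cluster assembly, had 174 and 330 CPM. Glrx3, its cytosolic counterpart in iron-sulfur handling, had 165 and 276 CPM, and the classical cytosolic Glrx 27.1 and 39.4 CPM. On annotated transcripts alone, Glrx5 had 0.900 and 0.945 times the reads of Glrx3. The reductases that recharge thioredoxin lay below Txn2, Glrx5 and Glrx3 in both libraries. Cytosolic Txnrd1 had 71.6 CPM in replicate 1 and 24.5 CPM in replicate 2, and mitochondrial Txnrd2 30.4 and 36.1 CPM. Txnrd1 was above Txnrd2 in replicate 1 with intervals apart, and below it in replicate 2 with overlapping intervals.

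Glutathione synthesis and recycling was the group with the lowest total, 60.9 CPM in replicate 1 and 40.7 CPM in replicate 2 over 4 genes. Glutathione reductase (Gsr) had 30.4 and 18.7 CPM. Of the 2 subunits of glutamate-cysteine ligase, the rate-limiting enzyme, the modifier Gclm had 16 and 19 reads (13.2 and 12.3 CPM) and the catalytic Gclc 13 and 5 reads (10.7 and 3.23 CPM). Glutathione synthetase (Gss) had 8 and 10 reads. These counts leave wide intervals, 1.05 to 7.53 CPM for Gclc in replicate 2.

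Glutathione transferases, which conjugate glutathione to electrophiles, summed to 414 and 712 CPM. Gstp1 led with 165 CPM in replicate 1 and 338 CPM in replicate 2. The mu-class genes followed, Gstm1 with 102 and 128 CPM, Gstm2 with 69.1 and 103 CPM and Gstm5 with 41.1 and 82.6 CPM. Gsto1 had 16.5 and 25.2 CPM, mitochondrial and peroxisomal Gstk1 13.2 and 27.8 CPM, and Gsta4, which acts on lipid aldehydes, 7.40 and 9.03 CPM. Gstp1 has near-identical copies: Gstp2, 98.2% identical over 707 bases, had 66 and 177 reads and Gstp-ps 3 and 12. Together the copies held 25.7% and 26.5% of the reads of the 3 genes, so the split between Gstp1 and Gstp2 rests on the authors' read assignment. Sod1 and Gstp1 were the members with the largest share on copies; 9 members had a copy at 95% identity or more over 200 bases, and for 5 of them no copy had reads.

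Among the regulators and related genes, Park7 was by far the most abundant. Park7 (DJ-1, a redox-sensing protein, chr4:150897133-150914437) had 920 and 2508 reads, 757 and 1618 CPM. Nfe2l1, the NRF2 relative that drives proteasome genes (chr11:96817414-96829968), had 326 and 144 reads, 268 and 92.9 CPM. Nfe2l2 itself had 32 and 18 reads, 26.3 and 11.6 CPM. Keap1 had 87.2 and 66.5 CPM, so its reads outnumbered those of Nfe2l2 3.31 to 1 in replicate 1 and 5.72 to 1 in replicate 2. On annotated transcripts alone these ratios were 2.65 and 1.25. Constitutive haem oxygenase (Hmox2) had 17.3 and 50.3 CPM. Nqo1, a quinone reductase and widely used readout of NRF2, had 2 and 3 reads, at or under the limit that a count of 0 allows.

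Metallothioneins, small zinc and copper binding proteins, summed to 69.1 and 101 CPM in replicates 1 and 2. Mt1 had 50 and 116 reads, 41.1 and 74.9 CPM, and Mt2 32 and 37 reads, 26.3 and 23.9 CPM. The neighbouring genes Mt1 and Mt2 on chromosome 8 thus stood at 1.56 to 1 in replicate 1, where their intervals overlapped, and at 3.14 to 1 in replicate 2, where they did not. Mt3 had 2 and 4 reads. Methionine sulfoxide reductases of the B type, which repair oxidised methionine, summed to 139 and 133 CPM. The selenoprotein Msrb1 had 26.3 and 61.3 CPM, mitochondrial Msrb2 28.8 and 45.2 CPM and Msrb3 83.9 and 26.5 CPM, so the leading gene of the 3 differed between the libraries. Their leading transcripts are 886, 1196 and 3843 nt long, in that order.

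Selenow was the most abundant member. This small muscle-rich selenoprotein (ENSMUSG00000041571, chr7:15917208-15922402, minus strand) had 1538 reads in replicate 1 and 3631 in replicate 2. Its level was 1265 CPM (1203 to 1330) and 2343 CPM (2268 to 2421), and it ranked 49th among all genes by mean CPM. Selenow alone held 21.8% of the members' reads in replicate 1 and 24.8% in replicate 2. Of the other selenoproteins without a peroxidase or reductase role, Selenok of the endoplasmic reticulum had 126 and 230 CPM, and Selenop 88.0 and 60.7 CPM. Selenos, which acts in the removal of misfolded proteins from that compartment, had 38.7 and 43.2 CPM. Selenon, whose human counterpart is mutated in a congenital myopathy, had 11 and 5 reads, 9.05 and 3.23 CPM. The 11 selenocysteine members together held 34.9% and 37.4% of the members' reads.

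The 10 members with a mean below 20 CPM (Nfe2l2, Gclm, Gsta4, Gclc, Sod3, Gss, Selenon, Prdx4, Mt3 and Nqo1) lay between 1.65 and 26.3 CPM in single libraries. The 8 members whose proteins work in mitochondria (Sod2, Prdx3, Prdx5, Txn2, Txnrd2, Glrx5, Gstk1 and Msrb2) summed to 1090 and 1540 CPM in replicates 1 and 2.

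The libraries were then compared gene by gene with a two-sided Fisher exact test of a gene's reads against all other reads, adjusted by Benjamini and Hochberg over all 8692 genes with 10 or more reads. Of the 46 members tested, 22 were higher in replicate 2, 6 were lower and 18 did not pass the threshold of 0.05. Of all tested genes, 43.3% passed, 17.0% higher and 26.3% lower in replicate 2. The members' shares were 47.8% higher and 13.0% lower. The median log2 ratio (replicate 2 over replicate 1, of CPM + 1) was 0.52 over the members and -0.27 over all tested genes. Scaling the libraries by TMM, which moved the median of all genes by over 0.2 to -0.02, gave 26 members higher and 3 lower, against 22.5% and 18.4% of all genes. DESeq2 size factors gave 27 and 3, against 23.1% and 15.8% of all genes. With a spread between animals put in, edgeR's exact test at a fixed coefficient of variation of 0.2 called 3 members higher and 3 lower, 13.0% of the members against 15.5% of all genes. At 0.4 it called 0 members and 0.0920% of all genes.

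By role, 8 of 13 superoxide and peroxide genes were higher in replicate 2 and 0 lower, as were 4 of 7 glutathione transferases with 0 lower. Of all tested genes 17.0% were higher and 26.3% lower, and these shares differed with transcript length. Of all genes, 62.0% were higher under 1000 nt and 23.2% between 1000 and 2000 nt. The leading transcripts of the 7 transferases ran from 821 to 1289 nt. In the thioredoxin and glutaredoxin group 4 of 7 were higher and 1 lower. Glutathione synthesis had 0 higher and 1 lower of 4. Among the selenocysteine members 6 of 11 were higher and 2 lower, and among the mitochondrial members 5 of 8 higher and 0 lower.

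Sod1 differed most in the upward direction, with a log2 ratio of 1.68 ± 0.33 (counting SE, adjusted p = 1.43e-07 by Fisher's exact test), but on annotated transcripts alone its ratio was 0.42 and did not pass. Hmox2 followed at 1.49 ± 0.35 (adjusted p = 2.15e-05 by the same exact test). Prdx2 (1.15), Park7 (1.10), Gpx4 (1.05), Gstp1 (1.03), Prdx1 (0.91) and Selenow (0.89) passed here and also on annotated transcripts alone. In the other direction were Msrb3 at -1.63 ± 0.27, Nfe2l1 at -1.52 ± 0.14 and Txnrd1 at -1.51 ± 0.28, and these 3 were the ones still called lower at a coefficient of variation of 0.2. Sod1, Prdx2 and Hmox2 were the 3 still called higher there. Nfe2l2 (-1.12), Gclc (-1.47) and Selenop (-0.53) were lower by the main test and were not called under either TMM or DESeq2 scaling. Prdx3, Mt2, Gclm and Selenos had ratios of -0.08, -0.14, -0.09 and 0.16 and did not pass, and the first 3 turned positive under TMM scaling, at 0.22, 0.15 and 0.18.

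The difference between the libraries went with transcript length, among the members as among all genes. Of 13 members whose leading transcript was under 1000 nt, 9 were higher in replicate 2 and 0 lower, with a median log2 ratio of 0.99, against 1.03 for all genes of that length, of which 62.0% were higher and 3.10% lower. Between 1000 and 2000 nt, 10 of 17 were higher and 0 lower, with a median of 0.56 against 0.24, and of all genes in this range 23.2% were higher and 7.07% lower. At 2000 nt and above, 3 of 16 were higher and 6 lower, with a median of -0.48 against -0.77, and of all genes in this range 5.49% were higher and 39.5% lower. Prdx1, Glrx5 and Sod2 were the 3 members of that range that were higher in replicate 2. Length here is that of the annotated transcript, and the length of the reads was not tested. Spearman's rho between length and log2 ratio was -0.52 over the 46 members and -0.59 over 8207 genes, points that share the same 2 libraries. Txnrd2 was placed under 1000 nt by Txnrd2-206 (532 nt), which had 2 and 9 reads in replicates 1 and 2. Its unannotated 17-exon chain of 1904 nt had 24 and 17 reads. The part of the length trend in the calls of single genes was not tested.

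**Figure D2:**
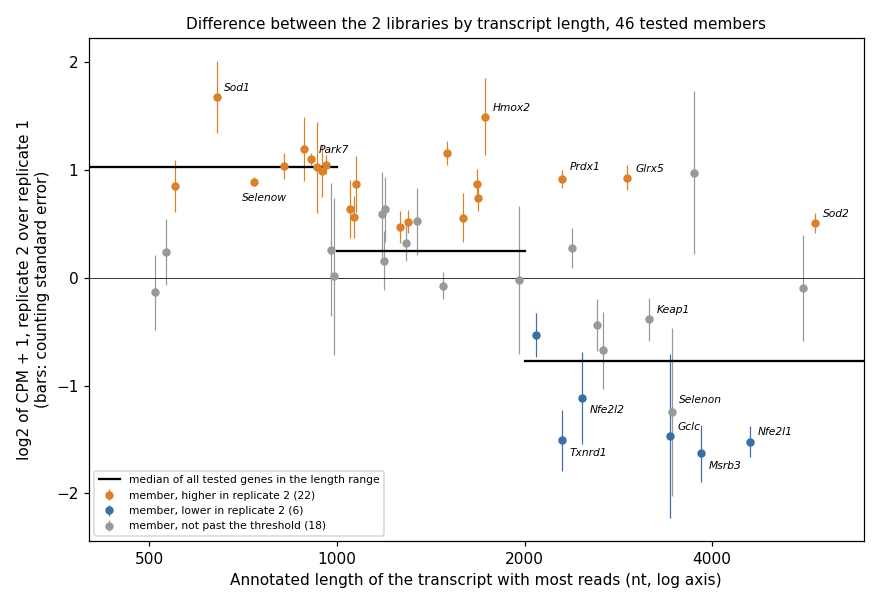
The log2 ratio of replicate 2 over replicate 1 (CPM + 1) for the 46 tested members against the annotated length of the leading transcript in nt, on a log axis, with counting standard errors. Black lines mark the median of all tested genes in 3 length ranges (1.03, 0.24 and -0.77); the 6 lower members all lie at 2000 nt or more.

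The reads of the members were mostly full matches to annotated transcripts. Annotated (Known) transcripts held 86.6% of the members' reads in replicate 1 and 81.1% in replicate 2. Over the summed reads of all genes the shares were 65.8% and 70.6%. In such sums abundant genes weigh most. Atp2a1 alone had 184211 of 1215785 reads in replicate 1 and 36472 of 1549606 in replicate 2. The share of a typical gene was not compared. Reads that matched part of an annotated intron chain (incomplete splice matches) held 5.57% and 7.87%. Chains with a splice site outside the annotation held 3.78% and 4.08%. New combinations of annotated sites held 0.948% and 0.683%, and reads of the genomic class 3.11% and 6.27%. Inside their gene, the single-exon genomic models with 10 or more reads held 0 bases outside annotated exons. Without Park7, annotated transcripts held 5535 of 6150 reads in replicate 1 and 10600 of 12125 (87.4%) in replicate 2. It exceeded 90% in both libraries for 16 members, among them Prdx1 (98.2% and 97.7%), Gpx4 (97.7% and 96.6%), Selenok (96.1% and 97.5%) and Selenow (94.6% and 95.5%).

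The annotated share was compared between the libraries in the 37 members with 20 or more reads in each. It differed in 8 (21.6%), against 27.2% of all genes tested, and was lower in replicate 2 in all 8. Of the 1042 genes called among all genes, 1023 were also lower in replicate 2. The largest falls were in Keap1, from 77.4% to 14.6%, Sod1, from 87.0% to 38.1%, and Nfe2l1, from 61.3% to 19.4%. Txnrd1 went from 93.1% to 68.4%, Prdx2 from 192 of 240 reads to 65.5%, Glrx5 from 81.0% to 66.8%, Park7 from 63.8% to 50.5% and Glrx3 from 95.0% to 84.8%.

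**Figure D3:**
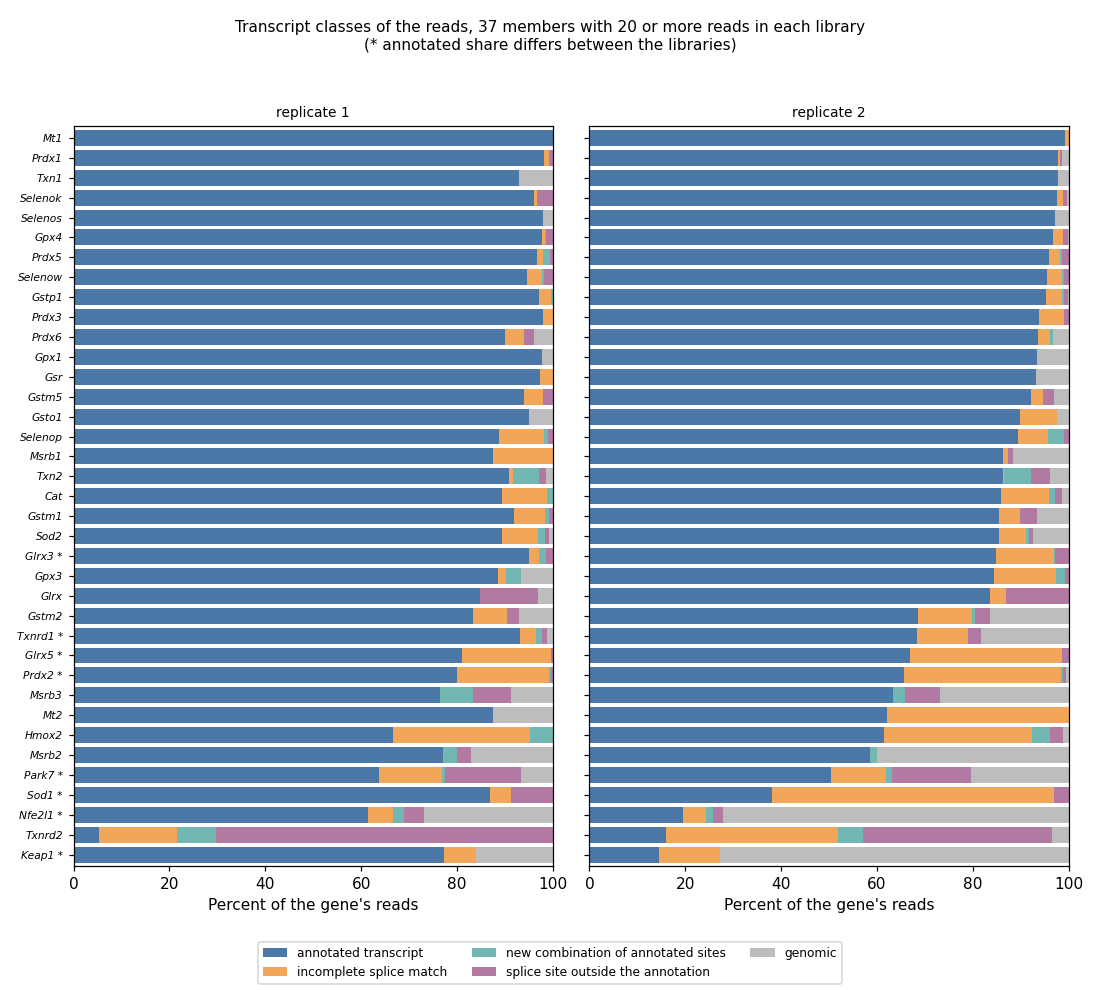
Percent of each gene's reads in the 5 transcript classes, for the 37 members with 20 or more reads in each library, replicate 1 on the left and replicate 2 on the right. Stars mark the 8 members whose annotated share differed. Reads of Keap1 and Nfe2l1 lie mostly in the genomic class in replicate 2, and Txnrd2 is mostly unannotated in both.

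Many of the reads outside annotated transcripts lay on single models without introns. In Keap1, 58 of 103 reads of replicate 2 (56.3%) lay on a 338-nt model at the 3′ end of its last exon and 17 more (16.5%) on the 334 nt next to it. In Nfe2l1, 104 of 144 reads of replicate 2 (72.2%) lay on a single-exon model at chr11:96814978-96818182, of which 2436 of 3205 bases reach beyond the annotated end of the gene. In replicate 1, 88 reads of Nfe2l1 (27.0%) lay on a 1373-nt model inside the last exon. Which reads are summed changed the values of these 2 genes: on annotated transcripts Nfe2l1 had 200 and 28 reads and Keap1 82 and 15, and Keap1, which did not pass on all reads, passed as lower. Park7 had a 107-nt genomic model at its 3′ end with 61 reads (6.63%) in replicate 1 and 504 (20.1%) in replicate 2. Prdx2 and Glrx5 each had an incomplete model at the start of the last exon, with 18.8% and 32.6% of the reads of Prdx2 and 18.0% and 31.8% of those of Glrx5.

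Transcript choice within genes was compared apart from the classes. The share of the leading annotated transcript, among reads outside the incomplete and genomic classes, was tested in 31 members, and 0 differed at the threshold, against 2.27% of all genes tested. At an unadjusted p under 0.05 the exact test gave 2 members, and the smallest adjusted p was 0.40. In 22 of the 31 the leading transcript held over 90% in both libraries.

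Several members had reads on more than 1 annotated transcript. Nfe2l1 was led by 3 annotated transcripts, all with a coding length of 2223 nt. Among annotated reads Nfe2l1-211 held 52.0% and 53.6%, Nfe2l1-201 32.0% and 28.6% and Nfe2l1-203 14.5% and 17.9%. Their annotated first exons differ, at chr11:96829411-96829502, chr11:96829819-96829968 and chr11:96827198-96827955. Nfe2l1-203 has no intron that Nfe2l1-211 lacks. Whether its reads started there or were cut short at the 5′ end was not tested. The shares of replicate 2 rest on 28 reads. Keap1 likewise had 4 transcripts with different annotated first exons and a coding length of 1872 nt, led by Keap1-201 with 54 of 82 and 11 of 15 annotated reads. Keap1-202 has no intron that Keap1-201 lacks, so the same holds for its reads.

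In Prdx2, Prdx2-201 held 89.1% and 89.0% and Prdx2-203 8.85% and 8.72%. These 2 transcripts end the first intron at different sites and share a coding length of 594 nt. In Prdx5, Prdx5-201 held 93.7% and 93.6% and Prdx5-203, with a coding length of 639 instead of 630 nt, 6.29% and 6.38%. The annotated first exon of Prdx5-203 overlaps the second exon of Prdx5-201, and it has no intron that Prdx5-201 lacks. Whether its reads started there or were cut short was not tested. Txnrd1-208 held 95.1% and 92.3% of annotated reads and Txnrd1-201, with the same coding length of 1497 nt, the rest. For Gpx4, Gpx4-202, with a coding length of 591 nt, held 99.7% and 99.6%, and Gpx4-201, with a longer coding sequence of 759 nt, had 0 and 1 reads.

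**Figure D4:**
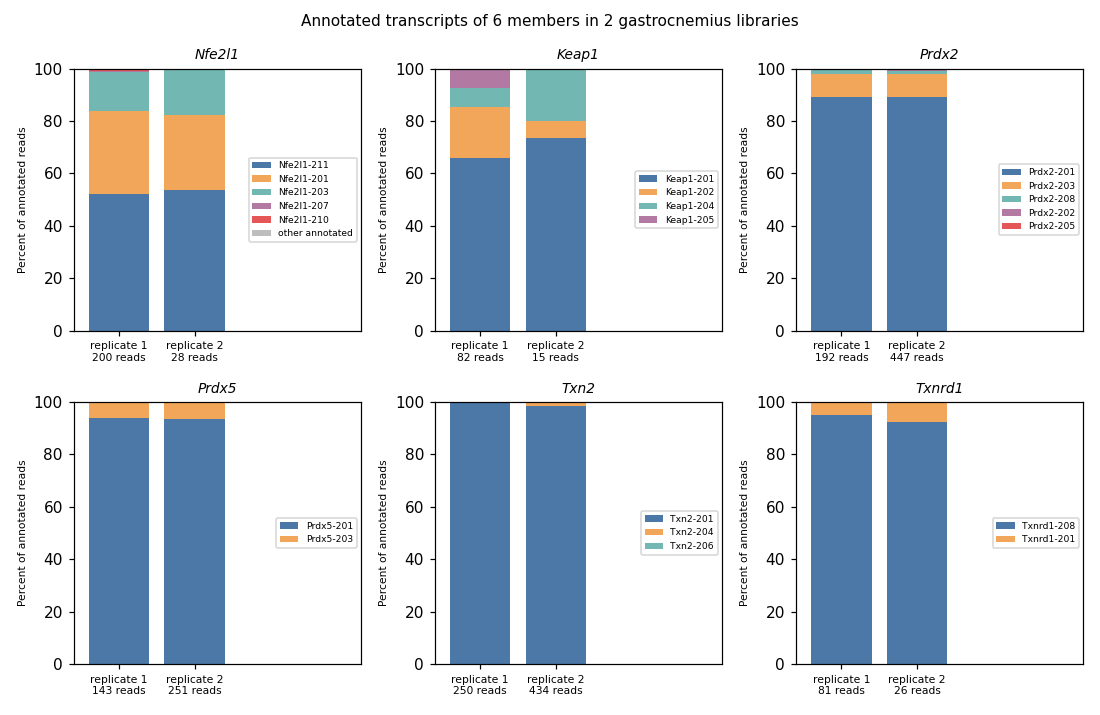
Percent of annotated reads on each annotated transcript of 6 members in replicate 1 and replicate 2, with the number of annotated reads under each bar. Nfe2l1 and Keap1 spread over several annotated transcripts, and the leading transcript holds 89.0% or more in Prdx2, Prdx5, Txn2 and Txnrd1.

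The share of a gene's reads whose model spans the first selenocysteine codon was then counted. For an annotated model this means that the annotated exons include it. This share was 80% or more in both libraries in 8 of the 11 genes. It was 96.3% and 96.9% in Selenow, 99.1% and 98.0% in Gpx4 and 99.4% and 98.9% in Selenok. In the other 3 it was under 80% in replicate 2. Txnrd1 had 98.9% and 78.9%, Txnrd2 had 94.6% and 78.6%, and the third had only 5 reads in replicate 2 and is not described here.

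The codon of Selenow sits in a 25-nt exon, the second of 6, at chr7:15920449-15920473 on the minus strand, shown here because a new chain leaves it out.
Selenow exon 2: tggagctTGAggctataagcccaag
A 5-exon chain without this exon, with an intron at chr7:15920359-15922241, had 10 reads in replicate 1 (0.650% of the gene) and 9 in replicate 2 (0.248%). It was 721 nt long, against 736 nt of Selenow-201. The 5′ end of its new intron was at chr7:15922241, against chr7:15922251 for the annotated first intron. The chain thus also differed at the end of its first exon. Whether its new junction was a true splice junction was not tested. A 6-exon chain that kept the codon and moved the acceptor of 1 intron by 2 bases (98 nt at chr7:15919945-15920042, against the annotated 96 nt) had 13 and 15 reads.

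Unannotated multi-exon chains, matched between the libraries by chromosome, strand and exact introns, numbered 318 over the members, and 190 of them had a single read in 1 library. In both libraries 88 chains of 30 genes were found, of which 49 of 23 genes were not incomplete matches and 12 had 20 or more reads. These 88 held 490 of the 591 chain reads of replicate 1 and 1088 of the 1306 of replicate 2. The most abundant belonged to Park7: a 3-exon chain at chr4:150897133-150902172 with 126 and 338 reads, 13.7% and 13.5% of the gene. Its first exon lies inside an annotated intron of Park7-201 (chr4:150901095-150903814), and its new intron is chr4:150901095-150901940. A non-coding annotated transcript that starts in the same intron, Park7-207, had 13 and 8 reads.

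Txnrd2 (chr16:18426384-18479073) had few reads on annotated transcripts. Annotated transcripts held 5.41% of its 37 reads in replicate 1 and 16.1% of its 56 reads in replicate 2, all on the 4-exon Txnrd2-206. A 17-exon chain with a new intron at chr16:18443287-18454475 had 24 reads (64.9%) and 17 reads (30.4%) and includes the selenocysteine codon. Of the other chains found in both, a 5-exon chain of Txn2 made of annotated sites had 10 and 18 reads, and a Glrx chain with an intron at chr13:75847299-75849247 had 4 and 8 reads, 12.1% and 13.1% of that gene.

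Promoter letters of the members were searched as a description of sequence, in RefSeq windows of 300 bases (GRCm38.p6, 250 before to 50 after the start) that existed for 43 of the 49 members. The core of the antioxidant response element, the site bound by NRF2 with small MAF proteins, was searched as TGACNNNGC on both strands. It was found in 9 of the 43 members (20.9%), against 14.0% of 27025 genes with a window. The members' windows held 59.3% G and C on average, against 53.8% over all windows. The 9 were Gclm, Gstm5, Msrb2, Mt2, Nfe2l2, Prdx1, Selenok, Sod1 and Txnrd1, of which 4 were higher in replicate 2, 2 lower and 3 not past the threshold. With the looser TGANNNNGC the order turned, with 18 members (41.9%) against 45.0% of all genes.
The matches of Prdx1 and Mt2 spell the same 9 letters on opposite strands, which also contain the AP-1 letters TGACTCA, and those of Gclm and Txnrd1 differ from them. They are shown in capitals, on the strand of the gene, with 20 bases on each side:
Prdx1, chr4:116685446-116685494, plus strand: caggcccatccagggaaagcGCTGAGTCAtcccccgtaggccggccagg
Mt2, chr8:94172519-94172567, plus strand: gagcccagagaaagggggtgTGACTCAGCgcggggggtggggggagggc
Gclm, chr3:122245403-122245451, plus strand: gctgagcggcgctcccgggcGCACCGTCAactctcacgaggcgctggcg
Txnrd1, chr10:82859094-82859142, plus strand: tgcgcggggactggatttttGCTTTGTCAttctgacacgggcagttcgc
The metal response element core (TGCACNC or TGCGCNC, both strands), the site of the zinc-sensing factor MTF1, was in 14 members (32.6%) against 28.2% of all genes. Mt1 held 3 matches, Mt2 4 and Mt3 1.

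Other genes of these pathways, from lists outside the 49, were read in the same way. The shares of all tested genes to set beside each list were 17.0% higher and 26.3% lower in replicate 2. Of 13 other selenoprotein genes 9 were detected, and of 7 tested 0 were higher and 3 lower in replicate 2. The highest were Sephs2, which makes the selenium donor (102 and 58.7 CPM), Selenof (35.4 and 42.6 CPM), Selenoo (37.0 and 20.7 CPM), Selenot (16.5 and 20.0 CPM) and Selenom (11.5 and 22.6 CPM). All 9 lay below Selenow in both libraries. Of 10 genes of selenocysteine synthesis, decoding and selenium handling, 9 were detected at a sum of 109 and 94.9 CPM, with 1 higher and 1 lower of 8 tested. Pstk, a kinase of the selenocysteine tRNA, had 19.7 and 35.5 CPM and passed as higher, and Sephs1 had 19.7 and 9.03 CPM and passed as lower. Secisbp2, which binds the selenocysteine insertion element, had 15.6 and 7.74 CPM, and Eefsec, the elongation factor for selenocysteine, 13.2 and 7.10 CPM. Neither of these genes passed. Lrp8, a receptor for Selenop, had no row.

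Of 30 other glutathione genes 28 were detected, with 5 higher and 1 lower of 19 tested. Glo1, the glyoxalase that uses glutathione, had 257 and 292 CPM, and microsomal Mgst3 147 and 374 CPM, the latter past the threshold. Hagh, the partner of Glo1, had 73.2 and 82.6 CPM and did not pass. Ethe1, a mitochondrial sulfur dioxygenase, had 33.7 and 53.6 CPM and passed as higher. Of 35 other redox and NRF2 genes 33 were detected, with 8 higher and 9 lower of 28 tested. The ferritin heavy chain Fth1, which stores iron and is an NRF2 target, had 1889 and 3347 CPM, above every member, and passed as higher. Rbx1, a subunit of the ubiquitin ligase that KEAP1 works with, had 139 and 285 CPM and passed as higher. Vcp (404 and 126 CPM), Me1, an NADPH-making enzyme (257 and 121 CPM), and Sqstm1, which binds KEAP1 (232 and 134 CPM), passed as lower.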

How the data were processed

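RNA of 2 gastrocnemius samples was sequenced in long reads. Per the file headers and the text deposited beside them, the authors aligned reads to mm10 and gave whole read counts per transcript model, annotated in GENCODE M21 or made by TALON, each library apart; aligner, read filters and strandedness: not given in the sources used here. Deposited exon numbers, lengths and coordinates describe models, not reads.

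Spike-in and unannotated genes were left out. Counts were summed per gene and divided by the library's reads in annotated genes; shares carry exact 95% Clopper-Pearson intervals. Fisher exact tests and Benjamini-Hochberg adjustment ran over all genes (scipy 1.17.1); with 1 library a side edgeR's quasi-likelihood test could not be fitted, so edgeR 4.0.16 (TMM, fixed variation) and DESeq2 1.42.0 (size factors) served as alternatives. Copies were found with BLAST+ 2.17.0. On simulated counts for 8692 genes with counting error alone, the library comparison called 67.0% of genes changed by 2-fold, 96.0% by 4-fold and 0.0490% unchanged. The changed genes were drawn from those with 50 or more reads over both libraries, so the first 2 shares do not cover members with fewer reads.

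Members, lists and tests were chosen with earlier results of these data known. Values are given for members with a mean of 20 CPM or more and those past a threshold with 20 or more reads, and, of other lists, for genes among the 5 highest; Gclc, Gsta4, Prdx4, Sod3, Gss, Gclm, Selenon, Nqo1, Mt3 and Eefsec were named beyond that rule. The sequence of 1 member is not reported here.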

Additional observations from a re-analysis of the deposited data

How the results depend on the processing

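No paired analysis was possible because the series holds 1 group. Depth limits the members under 20 CPM, and leaving out a library leaves no comparison; the summed level was 5815 CPM without replicate 2 and 9443 CPM without replicate 1. Of the 28 members that differed between the libraries, edgeR's exact test called 6 at a coefficient of variation of 0.2 (13.0% of the members against 15.5% of all genes) and 0 at 0.4 (0.0920% of all genes), with 0 also at an unadjusted p under 0.05, while the other scalings, classes and read minimums gave 25 to 30. With all read classes in the denominator, the leading transcript's share differed in 8 members instead of 0, the same 8 whose annotated share differed. Chains found in both libraries fell from 88 to 33 with 2 or more reads in each and to 49 without incomplete matches. The looser promoter core was found in 18 members instead of 9. For 26 of those 28 members, 178 of 234 values under other settings kept direction and side of the threshold, 56 lost the call and 0 reversed. The read minimums per gene and the fixed coefficients of variation keep the main ratio, so no value could reverse under them. Left out of this tally were Gclc and Nfe2l2. Gclc lost its call under every other setting that tested it, and Nfe2l2 under TMM, DESeq2 and both fixed coefficients of variation. Of the 18 members not called, 9 gained a call under some setting and 6 changed sign under some setting (Prdx3, Prdx4, Txnrd2, Gss, Gclm and Mt2).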
